A study of Homo sapiens with 6 samples.

Results

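Cyclins are the regulatory subunits that switch on the cyclin-dependent kinases (CDKs), and the 10 described here are those that drive the cell cycle itself: the D-type cyclins CCND1, CCND2 and CCND3, the E-type CCNE1 and CCNE2, the A-type CCNA1 and CCNA2, the B-type CCNB1 and CCNB2, and CCNF. They were taken by gene symbol from the deposited count table. They make up 10 of its 39323 genes, and all 10 passed the filter on low counts that left 16869 genes for testing. MDA-MB-231, a cell line from a triple-negative breast cancer, was transfected with a small interfering RNA (siRNA) duplex against SF3B6 (siSF3B6, 3 libraries) or with a non-targeting duplex (siNC, 3 libraries), and polyadenylated RNA was sequenced. SF3B6 encodes a small subunit of SF3b, a component of the U2 snRNP that recognises the branch point of introns. Both groups received the same lipid transfection reagent, and the labels give no time after transfection. The design text calls the libraries of a group biological replicates, but nothing says that they were separate cultures. The p-values therefore measure the spread between these libraries, which may be technical.

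The cyclins act in turn. D-type cyclins respond to growth signals and activate CDK4 and CDK6, which phosphorylate RB; E-type cyclins with CDK2 start DNA replication; A-type cyclins serve S phase and G2; and B-type cyclins with CDK1 carry the cell into mitosis. CCNF binds no known CDK and acts as the substrate-binding subunit of an SCF ubiquitin ligase that removes proteins during S phase and G2. Transcripts of the E-, A- and B-type genes and of CCNF rise and fall with the cycle, so in bulk RNA fewer cells in a phase and less RNA per cell cannot be told apart.

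Of the 10 cyclins, 2 rose after SF3B6 knockdown (CCND1 and CCNA2), 4 fell (CCND3, CCNE1, CCNA1 and CCNF) and 4 did not pass the test. The test was edgeR's quasi-likelihood test, with Benjamini-Hochberg adjusted p-values over the whole table of tested genes and a threshold of 0.05. Over all genes tested, 40.8% were called in either direction, 20.8% higher and 20.0% lower, so that 2 of 10 higher is near the background. The siSF3B6 and siNC libraries did not overlap for 9 of the 10 cyclins, against 52.1% of all genes tested. All siSF3B6 libraries lay below the siNC libraries for 6 of these cyclins and above them for 3. The median log2 fold change of the cyclins was -0.20, beside 0.000931 for all genes tested. Within both the D-type and the A-type classes, a member rose and another fell.

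The libraries held between 28504091 and 38546037 gene counts. SF3B6, the targeted gene, stood at 86.4, 80.5 and 102 CPM (counts relative to library size, scaled by TMM factors) in siNC replicates 1 to 3 and at 22.5, 25.0 and 21.3 CPM in the siSF3B6 replicates, and its mean dropped to 25.6% of the siNC mean (log2 fold change -1.96, SE 0.104, adjusted p = 1.43e-07). The siNC replicate 3 library stood apart from its group. Mitochondrially encoded genes took 9.07% of its counts, against 3.38% and 3.93% in siNC replicates 1 and 2 and 10.6% to 11.8% in the siSF3B6 libraries. It had at least 1 read in 24579 genes, against 30930 and 32041 in the other siNC libraries and 24516 to 25566 in the siSF3B6 libraries. For each cyclin, values with this library left out, and with it as the lone control, are given where they changed its call. For the gene lists, counts under these settings are given for some lists only. The line's defining markers were present in every library (VIM, CD44, AXL, FOSL1, MSN and S100A4, 43.1 to 547 FPKM), while ESR1 and PGR did not exceed 0.02 FPKM. EPCAM, listed as a low marker, was at 3.51 to 8.15 FPKM and rose by 1.09 on the log2 scale. CDH1, also listed as low, was at 0.57 to 1.02 FPKM and rose by 0.56 (adjusted p = 0.00697). The 10 markers of other cell types summed to 27.7 to 34.6 CPM in siNC and 24.5 to 29.5 CPM in siSF3B6. Most of that sum came from CD14 (350 to 479 reads per library, 5.72 to 7.55 FPKM), PECAM1 (204 to 302 reads) and GFAP (126 to 266 reads). Of the 5 that were tested, 1 was called higher and 2 lower, and without siNC replicate 3, 0 higher and 2 lower. GFAP was called lower (log2 fold change -0.74, adjusted p = 0.000869), as was PECAM1 (-0.34, adjusted p = 0.0332). PTPRC had 15, 21 and 17 reads in siNC and 17, 51 and 45 in siSF3B6. MYH11 had 14, 14 and 4 reads in siNC and 5, 64 and 15 in siSF3B6. CD3E, VWF, ALB and DES had at most 8 reads in any library. The part of other cells in the cyclin values was not tested.

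Promoter sequences of the G2 and mitotic members are shown because CCAAT boxes, CHR elements and CRE words are textbook features of such genes, and because CCNA1 and CCNA2 moved in opposite directions. The sequences come from RefSeq (GRCh38.p14), as windows from 250 bases before to 50 bases after an annotated start. Windows of 7 of the 10 cyclins were searched. CCND1 and CCND2 had no entry, and CCNE2 was left out of the search. Both strands were searched for CCAAT, for the CHR words TTTGAA and TTCGAA, for the CRE words TGACGTCA and TGACGCA, and for the E2F words TTTGGCGC, TTTCCCGC, TTTCGCGC and TTTGCCGC. Capitals mark the matches, and ATTGG is CCAAT read on the other strand. The A-type pair is shown over the same distance from the start, -91 to -42, with CCNA2 at chr4:121823925-121823974 on the minus strand and CCNA1 at chr13:36431864-36431913 on the plus strand. CCNB1 is at chr5:69167053-69167109, CCNB2 at chr15:59105016-59105132 and CCNF at chr16:2429197-2429377, all on the plus strand.
CCNA2: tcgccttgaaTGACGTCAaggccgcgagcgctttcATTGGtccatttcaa
CCNA1: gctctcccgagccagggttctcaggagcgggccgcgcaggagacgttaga
CCNB1: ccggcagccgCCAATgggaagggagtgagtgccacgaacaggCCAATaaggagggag
CCNB2: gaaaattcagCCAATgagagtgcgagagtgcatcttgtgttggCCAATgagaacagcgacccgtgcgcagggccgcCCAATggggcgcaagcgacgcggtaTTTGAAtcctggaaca
CCNF: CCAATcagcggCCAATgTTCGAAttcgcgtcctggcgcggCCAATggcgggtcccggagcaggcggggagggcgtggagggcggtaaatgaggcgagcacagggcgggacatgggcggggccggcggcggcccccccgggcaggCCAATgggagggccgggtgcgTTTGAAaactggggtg

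The CCNA2 window held a CRE word at -81 and a CCAAT box at -56, while the CCNA1 window held no match to any of the words. The A-type windows differ in place. The CCNA1 window (36431705 to 36432004) lies wholly inside the gene in GENCODE, which begins at 36431520. The CCNA2 window (121823834 to 121824133) spans the GENCODE start of its gene at 121823933. CCNB1 held 2 CCAAT boxes whose first bases were 32 bases apart. CCNB2 held 4, the last 3 of them at a regular spacing of 33 bases, followed by a CHR word at -29. CCNF held 4 CCAAT boxes and 2 CHR words. CCND3 has 3 windows in the table, of which 2 held 1 CCAAT box each, and CCNE1 held no match. No E2F word was found in any of these windows, which do not include CCND1, CCND2 or CCNE2. Among all 35116 windows of the table, 34.6% held CCAAT, 16.4% a CHR word, 4.25% a CRE word and 3.32% an E2F word. The 4 genes with CCAAT in the sequences above did not share a direction of change, as CCNA2 rose, CCNF fell, and CCNB1 and CCNB2 did not pass the test. A match describes the letters in the window and is not evidence of binding. Only the words listed were searched, so a window without a match may hold another form of an element.

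Levels were compared between genes on the length-scaled FPKM values that the authors deposited. In siNC, CCND1 stood highest at a mean of 122 FPKM, followed by CCNB1 at 107, CCND3 at 54.6, CCNA2 at 31.9 and CCNB2 at 26.3 FPKM. CCNE2, CCNE1 and CCNF stood at 6.13, 5.89 and 5.50 FPKM, and neighbours in that trio overlapped between libraries. CCNA1 followed at 3.30 FPKM and CCND2 at 0.283 FPKM. In siSF3B6, CCND3 dropped from the rank after CCNB1 to below CCNA2, at 28.4 FPKM, where it overlapped with CCNB2 at 25.0 FPKM. CCNE1 moved below CCNF, at 3.31 against 4.13 FPKM. The top and the bottom of the order were the same in both groups, with CCND1 and CCNB1 first and CCNA1 and CCND2 last.

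**Figure D1:**
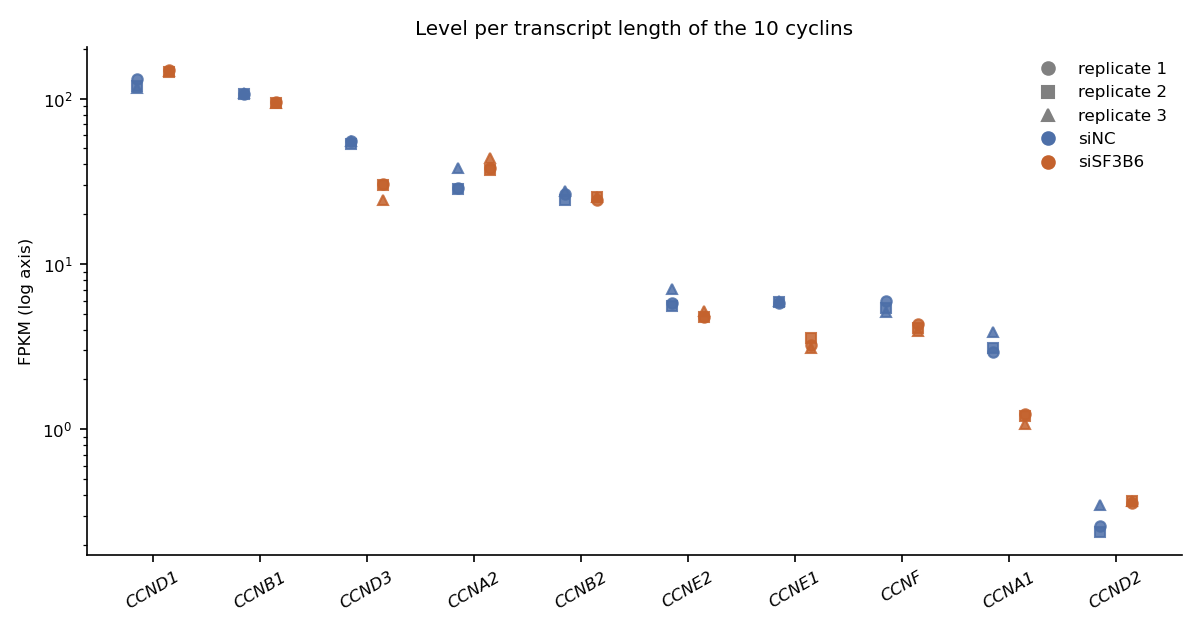
Deposited FPKM (log axis) of the 10 cyclins in each of the 6 libraries, ordered by the siNC mean. Blue is siNC, orange is siSF3B6, and the symbol is the replicate. The genes span from 0.283 FPKM for CCND2 to 122 FPKM for CCND1 in siNC, and CCND3, CCNE1 and CCNA1 show the widest drops.

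Of the D-type cyclins, CCND1 rose and CCND3 fell. CCND1 (chromosome 11, 69641087 to 69654474, plus strand) stood at 727, 667 and 638 CPM in siNC replicates 1 to 3 and at 859, 837 and 849 CPM in the siSF3B6 replicates. The siSF3B6 libraries were all higher, with 110 CPM between the closest libraries. The mean went from 677 ± 45.7 to 848 ± 11.1 CPM (SD, n = 3 each), which is 0.32 on the log2 scale (SE 0.0844, adjusted p = 0.00750 by edgeR). CCND3 (chromosome 6, 41934933 to 42050357, minus strand) stood at 374, 360 and 370 CPM in siNC and at 213, 209 and 171 CPM in siSF3B6. The siSF3B6 mean was 53.8% of the siNC mean, with all siSF3B6 libraries far below the closest siNC library. On the log2 scale the change was -0.89 (SE 0.0910, adjusted p = 1.19e-05), and 2.97% of the genes tested had a lower value. The longest annotated transcripts of CCND1 and of CCND3 both hold 4 introns. In the annotation, 10.3% of the exonic bases of CCND1 overlap LTO1 on the other strand, which was at -0.18 (adjusted p = 0.126).

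CCND2 (chromosome 12, 4273772 to 4305350, plus strand), the D-type cyclin with the lowest level here, had only 67 to 131 reads per library. It stood at 2.44, 2.22 and 3.24 CPM in siNC and at 3.44, 3.55 and 3.63 CPM in siSF3B6. The siSF3B6 libraries were all higher, but siNC replicate 3 came within 0.193 CPM of them, and the log2 fold change of 0.42 (SE 0.170, 95% interval 0.05 to 0.79) did not pass the test (adjusted p = 0.0629). Without siNC replicate 3 it was 0.61 and passed (adjusted p = 0.0106), and against that library alone it was 0.11 (adjusted p = 0.764). In the annotation 13.8% of its exonic bases overlap another gene on the same strand, AC008012.1.

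The opposite moves of CCND1 and CCND3 changed the make-up of the D-type class more than its total. CCND1 made up 70.1%, 69.1% and 67.5% of the summed D-type FPKM in siNC and 82.8%, 82.7% and 85.5% in siSF3B6. The sum itself was 177 ± 8.43 FPKM in siNC and 176 ± 3.96 FPKM in siSF3B6 (SD, n = 3 each), with overlapping libraries. Divided by the TMM factors, the sums were 170 ± 7.72 and 182 ± 5.94, so that the order of the groups depended on the scaling while the libraries still overlapped. The log2 ratio of CCND1 to CCND3 went from 1.15 ± 0.0865 to 2.38 ± 0.175, a difference of 1.23. This is the largest separation that 3 against 3 libraries can show in an exact two-sided permutation test, whose smallest p is 0.1 (adjusted p = 0.133 over the 4 paralog pairs compared), so no such ratio can pass a threshold of 0.05 here.

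**Figure D2:**
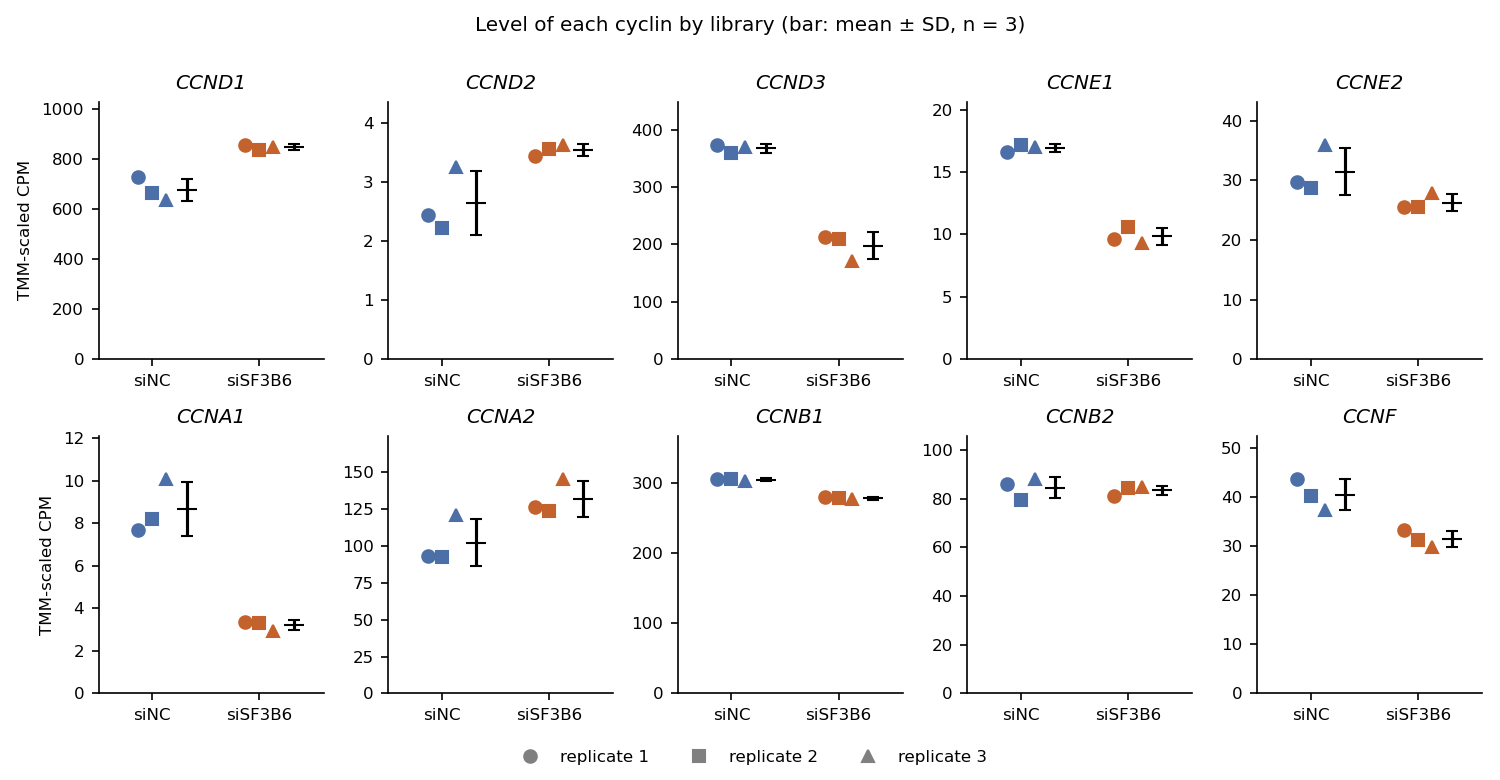
TMM-scaled CPM of each cyclin in the 3 siNC (blue) and 3 siSF3B6 (orange) libraries, each panel starting at 0, with the mean and SD beside the points. CCND1 rises from 677 to 848 CPM while CCND3 drops from 368 to 198 CPM, and siNC replicate 3 (triangle) lies highest of its group for CCND2, CCNE2, CCNA1, CCNA2 and CCNB2.

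Of the E-type cyclins, which open S phase with CDK2, CCNE1 fell and CCNE2 lay at the threshold. CCNE1 (chromosome 19, 29811898 to 29824308, plus strand) stood at 16.6, 17.2 and 17.0 CPM in siNC and at 9.67, 10.6 and 9.29 CPM in siSF3B6. The siNC libraries were tightly grouped and the siSF3B6 mean was 58.2% of theirs. The log2 fold change was -0.78 (SE 0.0971, adjusted p = 5.14e-05), and 4.66% of the genes tested had a lower value. CCNE2 stood at 29.7, 28.7 and 36.0 CPM in siNC and at 25.5, 25.5 and 27.9 CPM in siSF3B6. The siSF3B6 libraries were all lower, though by 0.867 CPM between the closest libraries. The log2 fold change was -0.26 (95% interval -0.48 to -0.05, adjusted p = 0.0501), which other methods put on either side of the threshold. It was -0.15 (adjusted p = 0.193) without siNC replicate 3 and -0.47 (adjusted p = 0.0326) against that library alone. In the annotation, 37.1% of the exonic bases of CCNE2 overlap antisense genes, among them INTS8, which rose by 0.44 on the log2 scale (adjusted p = 0.00286). The sources used here do not say whether the counting used strand, so reads of CCNE2 and INTS8 may be mixed.

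Summed FPKM of the E-type pair was 12.02 ± 0.908 in siNC and 8.24 ± 0.192 in siSF3B6, with no overlap, and also lower with TMM scaling (11.6 ± 1.30 and 8.54 ± 0.179). CCNE1 made up 49.1% ± 3.06 of that sum in siNC and 40.1% ± 2.67 in siSF3B6. The log2 ratio of CCNE1 to CCNE2 differed by -0.53 between the groups (exact permutation p = 0.1, the smallest possible, adjusted p = 0.133).

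The A-type cyclins diverged most. CCNA1 (chromosome 13, 36431520 to 36442882, plus strand), the A-type member best known from the germ line, stood at 7.69, 8.22 and 10.1 CPM in siNC and at 3.37, 3.30 and 2.94 CPM in siSF3B6. The siSF3B6 mean was 37.0% of the siNC mean, and every siSF3B6 library lay more than 4 CPM below every siNC library. The log2 fold change of -1.43 (SE 0.143, adjusted p = 1.02e-05) was the largest of the 10 cyclins, and 0.308% of the genes tested had a lower value. CCNA2 (chromosome 4, 121816444 to 121823933, minus strand), the A-type cyclin of dividing somatic cells, stood at 93.1, 92.6 and 121 CPM in siNC and at 126, 123 and 145 CPM in siSF3B6. All siSF3B6 libraries were higher, but siNC replicate 3 came within 2.37 CPM of the lowest of them, and replicate 3 was the highest library in each group.

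The log2 fold change of CCNA2 was 0.37 (SE 0.107, adjusted p = 0.0150). It was 0.51 without siNC replicate 3, and 0.11 (adjusted p = 0.615) with that library as the lone control. The call was also lost without siNC replicate 1, siNC replicate 2 or siSF3B6 replicate 3, at 0.30, 0.30 and 0.28, and on the deposited FPKM at 0.31 to 0.32. In the annotation, 9.08% of the exonic bases of CCNA2 overlap EXOSC9 on the other strand, which was at 0.10 (adjusted p = 0.400). CCNA1 made up 9.39% ± 0.329 of the summed A-type FPKM in siNC and 2.91% ± 0.423 in siSF3B6 (SD, n = 3 each). The log2 ratio of CCNA1 to CCNA2 went from -3.27 ± 0.0553 to -5.07 ± 0.227, a difference of -1.80 (exact permutation p = 0.1, the smallest possible, adjusted p = 0.133).

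**Figure D3:**
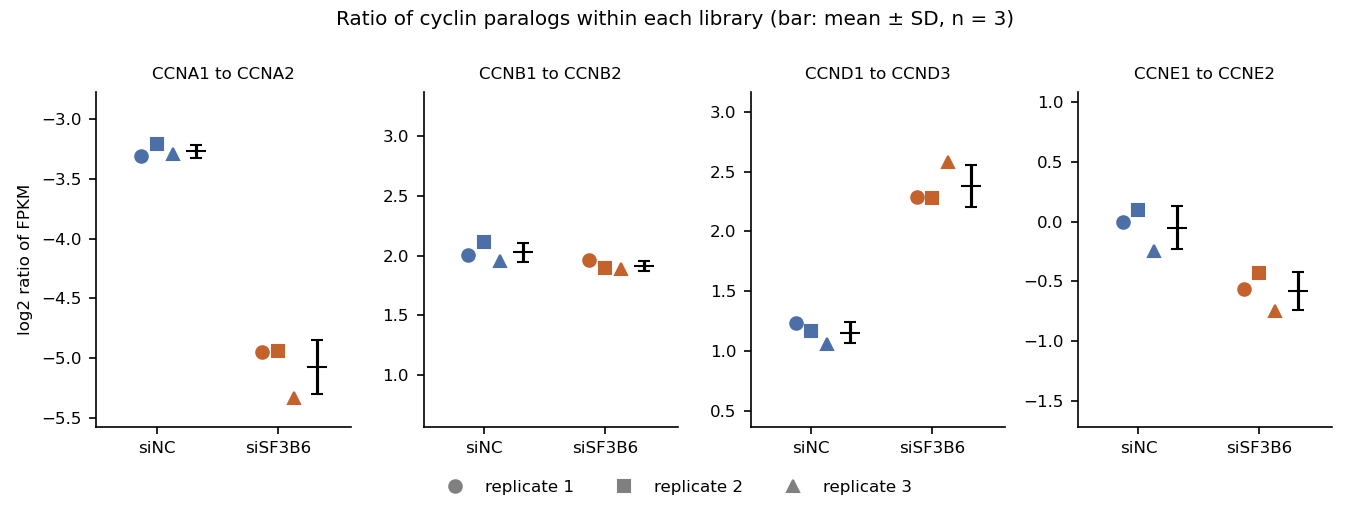
Log2 ratio of deposited FPKM for the 4 paralog pairs in each library, with the mean and SD; each panel spans the same range on the log2 axis. CCNA1 to CCNA2 shifts by -1.80 and CCND1 to CCND3 by 1.23, CCNE1 to CCNE2 shifts by -0.53, and CCNB1 to CCNB2 by -0.11.

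The B-type cyclins, partners of CDK1 in mitosis, were not called. CCNB1 (chromosome 5, 69167010 to 69178245, plus strand) stood at 305, 305 and 302 CPM in siNC and at 280, 278 and 276 CPM in siSF3B6. Both groups were tight, and their closest libraries lay 22.1 CPM apart. In the model, which shares its estimate of spread across genes, the log2 fold change was -0.13 (SE 0.0723, 95% interval -0.29 to 0.03, adjusted p = 0.169). CCNB2 (chromosome 15, 59105078 to 59125045, plus strand) stood at 85.8, 79.6 and 88.2 CPM in siNC and at 81.3, 84.5 and 84.6 CPM in siSF3B6. It was the only cyclin whose groups overlapped, with a log2 fold change of -0.02 (SE 0.0768, 95% interval -0.18 to 0.15, adjusted p = 0.873). The interval of CCNB2 covers neither the rise of CCND1 nor the drop of CCNF. The log2 ratio of CCNB1 to CCNB2 differed by -0.11 (exact permutation p = 0.2, adjusted p = 0.2).

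CCNF (chromosome 16, 2429394 to 2458854, plus strand), the cyclin of the SCF ligase, stood at 43.8, 40.4 and 37.5 CPM in siNC and at 33.3, 31.3 and 29.98 CPM in siSF3B6. All siSF3B6 libraries were lower, by 4.16 CPM between the closest libraries. For CCNF the log2 fold change was -0.36 (SE 0.0889, adjusted p = 0.00521), and with siNC replicate 3 alone as control it was -0.26 (adjusted p = 0.209). In the annotation, 11.8% of its exonic bases overlap antisense genes. Among 11 tested substrates and partners of CCNF, 8 fell and 2 rose, with a median log2 fold change of -0.39. E2F1 fell by 1.34 and E2F2 fell by 1.33 on the log2 scale, both being E2F activators that CCNF marks for degradation, while SKP1, an SCF core subunit, rose by 0.33 and E2F3 by 0.32. With siNC replicate 3 as the lone control, 6 of the 11 fell and 0 rose (edgeR), where 7.24% of all genes tested were called lower and 6.60% higher, the background for each such count given here. With a correction for trends with GC content and transcript length, SKP1 was at 0.17 and no longer called (adjusted p = 0.0658).

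**Figure D4:**
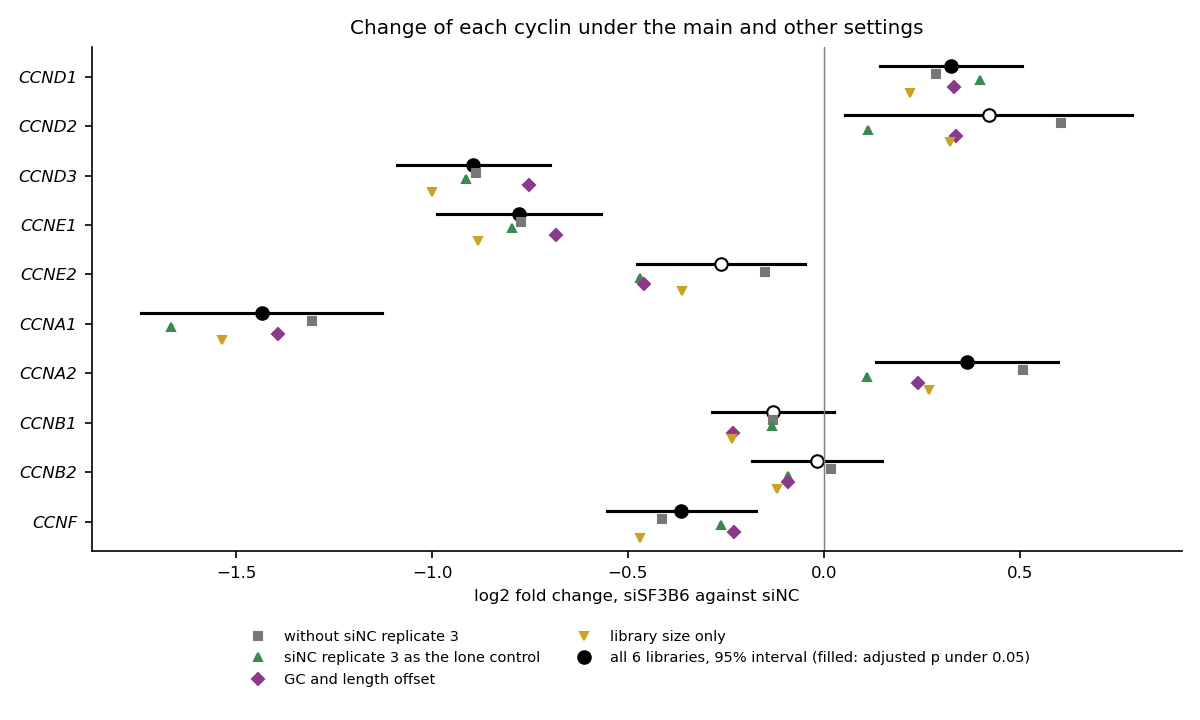
Log2 fold change of each cyclin, siSF3B6 against siNC, with all 6 libraries (circles with 95% intervals, filled where the adjusted p was under 0.05) and under 4 other settings. CCND3, CCNE1 and CCNA1 lie well below 0 under each setting shown, while CCNA2 ranges from 0.11 with siNC replicate 3 as the lone control to 0.51 without it.

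GC content moved with the changes over all genes. Across 16675 genes with an annotated transcript, Spearman's rho of log2 fold change against GC content was -0.34, given as a description since genes are not independent replicates. The median log2 fold change went from 0.20 in the lowest of 5 equal bins of GC content to -0.23 in the highest. The longest transcripts of CCND3 and CCNF had 56.2% and 57.6% GC, and those of CCNA2 and CCNE2 had 42.1% and 36.9%. CCND1 and CCNA1 both had 50.3% and moved in opposite directions. With an offset that removes the trends with GC content and length, CCND3 was at -0.75, CCNE1 at -0.68, CCNA1 at -1.39 and CCND1 at 0.33, all still called. CCNA2 was at 0.24 (adjusted p = 0.0186) and CCNF at -0.23 (adjusted p = 0.00749). CCNE2 at -0.46 (adjusted p = 0.000158) and CCNB1 at -0.23 (adjusted p = 0.00554) passed the test under this offset, so that 6 cyclins were called lower and 2 higher. With this offset 22.7% of all genes tested were called lower and 23.7% higher.

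**Figure D5:**
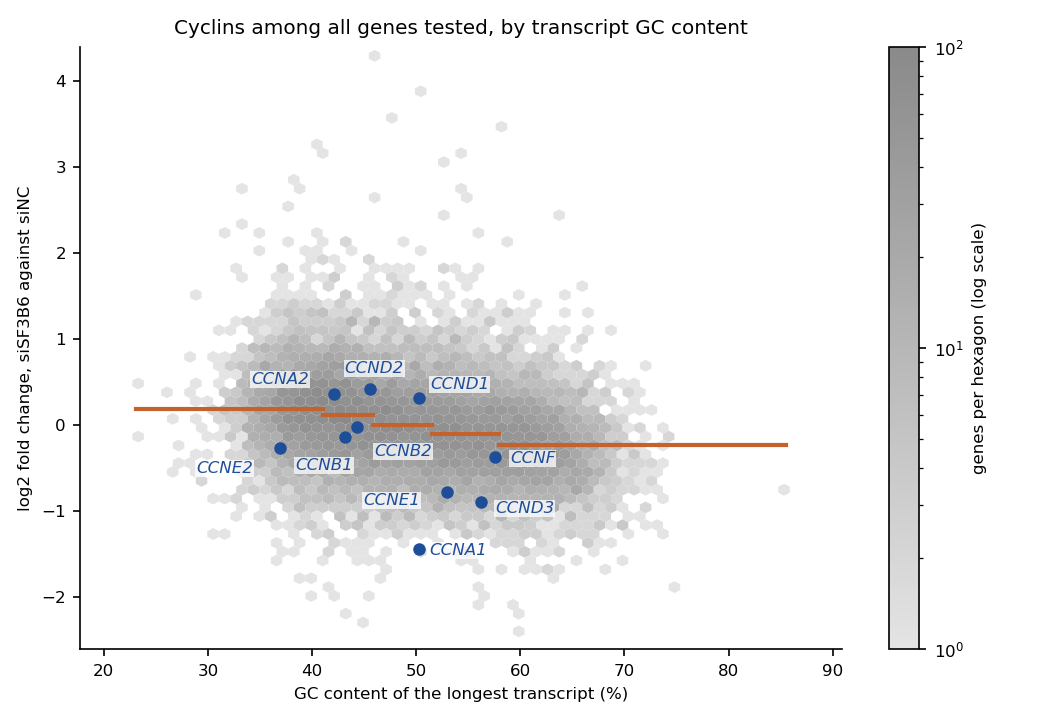
Log2 fold change against GC content of the longest transcript for the 10 cyclins (blue points) over all genes tested (grey hexagons, darker with more genes on a log scale). Orange lines are the medians of 5 equal bins of genes by GC content, from 0.20 down to -0.23; CCNA1, CCNE1 and CCND3 lie far below the median of their bin.

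By edgeR with all 6 libraries, the kinases that cyclins activate were lower or not called. Of the 6 CDKs and CKS proteins that partner these cyclins, 3 fell and 0 rose by edgeR. At an unadjusted p under 0.05 (edgeR), 2 were higher and 3 lower. DESeq2 called 0 higher, where 19.7% of all genes tested were. Without siNC replicate 3, 1 was called higher and 3 lower, where 22.5% and 21.4% of all genes tested were. For counts at an unadjusted p, the share over all genes tested is not given here. CDK4, the kinase of D-type cyclins, went from 239 ± 28.9 to 163 ± 14.7 CPM (log2 fold change -0.55, SE 0.0997, adjusted p = 0.000708). CDK2, the kinase of E- and A-type cyclins, went from 91.6 ± 5.93 to 65.6 ± 0.867 CPM (-0.48, SE 0.0786, adjusted p = 0.000353). CKS1B, a small CDK-binding protein, fell by 0.27 on the log2 scale. CDK1, the mitotic kinase, was at -0.17 (adjusted p = 0.124) and CDK6 at 0.21 (adjusted p = 0.0744). CKS2 was at 0.46 (adjusted p = 0.0545), higher but not called. The median of the 6 was -0.22.

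Enzymes that set the phosphates on CDKs and the CDK inhibitors moved both ways. Of 10 enzymes, 3 fell and 1 rose, with a median of -0.20. PKMYT1, a kinase that holds CDK1 inactive, fell from 55.5 ± 4.68 to 27.7 ± 3.57 CPM (log2 fold change -0.999, adjusted p = 1.45e-05), and CDC25B, a phosphatase that activates CDKs, fell by 0.49 on the log2 scale and was at -0.32 with the GC and length offset, still called. CDK7, the CDK-activating kinase, rose by 0.33 at the edge of the threshold (adjusted p = 0.0493) and was not called after correction for trends with GC content and length. With siNC replicate 3 as the lone control 2 of the 10 fell and 0 rose. Of 8 CDK inhibitors, 6 were tested, of which 2 rose and 3 fell. CDKN1B, which encodes p27, the inhibitor of CDK2 complexes, rose from 63.7 ± 2.36 to 107 ± 7.77 CPM (0.75, SE 0.0814, adjusted p = 1.86e-05), and CDKN1C rose by 0.47. The INK4 members CDKN2D and CDKN2C, inhibitors of CDK4 and CDK6, fell by 0.67 and 0.43, as did CDKN1A, which encodes p21 of the same family as p27, by 0.38 (adjusted p = 0.00454). After the correction for GC content and length CDKN1C was at 0.75, CDKN2D at -0.44 and CDKN2C at -0.27, all still called.

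Among 26 genes of the ubiquitin ligases that degrade cyclins, 11 fell and 5 rose, with a median of -0.13. Over all genes tested, 20.0% were called lower and 20.8% higher, so that 5 of 26 higher is near the background. The same shares are the background for each list count by edgeR with all 6 libraries. FBXW7, the F-box protein that targets E-type cyclins, rose from 12.3 ± 1.02 to 18.7 ± 2.11 CPM (log2 fold change 0.61, adjusted p = 0.000675). AMBRA1, a ligase adaptor for D-type cyclins, rose from 24.7 ± 1.73 to 37.2 ± 1.94 CPM (0.59, adjusted p = 0.000194). UBE2S and ANAPC2, an E2 enzyme and a subunit of the anaphase-promoting complex that degrades A- and B-type cyclins, fell by 0.88 and 0.60. With the GC and length offset ANAPC2 was at -0.32, still called. Against siNC replicate 3 alone, 2 of the 26 fell and 2 rose, near the background of that setting.

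Of 23 genes for E2F, RB, DREAM and NF-Y factors that act at cyclin promoters, 8 fell and 4 rose, with a median of -0.099. With 20.8% of all genes tested called higher and 20.0% lower, 4 of 23 higher is near the background. E2F1, an activator of S-phase genes, went from 119 ± 11.3 to 46.7 ± 4.12 CPM (log2 fold change -1.34, SE 0.0953, adjusted p = 9.75e-07), and E2F2 from 12.01 ± 1.38 to 4.75 ± 0.829 CPM. E2F5 and E2F6, of the repressor group, rose by 0.53 and 0.45, and E2F5 was at 0.32 with the GC and length offset, still called. Against siNC replicate 3 alone, 6 fell and 1 rose.

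Genes that peak in the same phases as these cyclins were counted beside them. Of 42 tested S-phase genes, 37 fell and 0 rose by edgeR (0 higher at an unadjusted p under 0.05, and 0 higher by DESeq2), with a median of -0.53. CDC45, a component of the replicative helicase, fell by 1.19 on the log2 scale. CCNE1 at -0.78 moved in the direction of this list, and CCNA2 at 0.37 did not. Of 50 tested G2/M genes, 21 fell and 6 rose, with a median of -0.18. Beside both lists stand 20.0% of all genes tested called lower and 20.8% called higher. Without siNC replicate 3, 19 of the 50 G2/M genes fell and 9 rose, where 21.4% and 22.5% of all genes tested did. AURKB, a mitotic kinase, and TUBB4B, a tubulin, fell by 0.85 and 0.80, while G2E3 and CDCA2 rose by 0.65 and 0.34. Against siNC replicate 3 alone, 31 S-phase genes fell and 0 rose, and 16 G2/M genes fell and 1 rose. With the GC and length offset, all 42 S-phase genes fell, 37 G2/M genes fell and 4 rose, and G2E3 was at 0.41.

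The genes most like each cyclin were those with the smallest root mean square distance between log2 CPM profiles over the 6 libraries, each centred on its own mean, among 11298 genes of at least 5 CPM, a limit that left out CCND2. For CCND1 they were DUSP5 and PDIK1L (distance 0.0207 each), for CCND3 PXMP2 and APOC1 (0.0238 and 0.0309), and for CCNE1 CYB5R2 and ERLIN1 (0.0403 each). For CCNA1 the nearest genes were much farther away, AIF1L at 0.113 and TMPO-AS1 at 0.151. CCNA2 was nearest to UEVLD and FMN1 (0.0227 each), CCNE2 to EIF3J and IPO7 (0.0198 and 0.0240) and CCNF to BRD3 and RPS6KA2 (0.0181 and 0.0195). CCNB1 was nearest to SH3PXD2A and DHX32 (0.0153 and 0.0178), and CCNB2 to DNAAF2 and PMS2P1 (0.0149 and 0.0174). Among the cyclins themselves, the closest pairs were CCNB1 with CCNB2 at 0.0776, CCND2 with CCNA2 at 0.0819, and CCND3 with CCNE1 at 0.102. The 6 libraries form 2 groups, so a like profile includes a like change between them.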

How the data were processed

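RNA-seq libraries of 6 MDA-MB-231 samples, 3 siNC and 3 siSF3B6, were grouped by their titles. The titles all name MDA-MB-231, whereas the cell line field of the labels names a different line for each sample, and the titles were followed. The authors deposited whole-number read counts per gene, which were not normalized, and FPKM values with 2 decimals. HISAT2, DESeq2 and hg38 are named, per the submitters' processing notes. Which tool counted the reads, with which strand setting and annotation, is not given in the sources used here.

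Counts were filtered with filterByExpr, scaled by TMM and tested with edgeR 4.0.16 (glmQLFit, glmQLFTest) in R 4.3.3, siSF3B6 against siNC without a replicate block, with Benjamini-Hochberg adjustment over all genes tested. CPM were computed from the counts with TMM factors, and standard errors were derived from the F statistic (fold change on the log2 scale over the root of F). Paralog ratios used FPKM. The gene test was checked on simulated data in which 200 genes were changed. As 6889 genes were called here, that check does not cover changes as widespread as these.

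Alternatives were DESeq2 1.42.0, limma 3.58.1 (voom, and log2 of FPKM plus 1 or 0.1), RLE factors, library size only, other filters, robust dispersion, a replicate block, an offset for GC content and length (lowess, span 0.3), leaving out each library, libraries 1 and 2 only, and siNC replicate 3 as the lone control. Gene positions, transcripts and 3′ UTRs come from GENCODE release 29 (GRCh38), promoters from RefSeq (GRCh38.p14).

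The cyclins and the gene lists, written from general knowledge, were chosen with earlier results of these data known. From each list, the text names up to 2 called genes per direction of at least 5 CPM with the largest change. It also names the cyclins, SF3B6 and the 2 genes most like each cyclin of at least 5 CPM. CDK1, CDKN1A, CDK6, CKS1B, CKS2 and overlapping antisense genes were added after their values were seen. Some genes that the rule names are not reported here.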

Additional observations from a re-analysis of the deposited data

How the results depend on the processing

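CCND3, CCNE1 and CCNA1 kept their direction and their call in all 20 alternatives. With library size only, the median of all genes moved by -0.10 on the log2 scale. The 3509 higher and 3380 lower calls became 2459 and 4558, or 14.6% and 27.0% of all genes tested. CCND1 was then at 0.22 and not called, CCNE2 at -0.36 and CCNB1 at -0.23 were called, and 1 cyclin was called higher. Limma on log2(FPKM + 1) without a filter gave CCND1 0.27 and CCNA2 0.31, neither called. It called 0 cyclins higher (2 at an unadjusted p under 0.05, and 2 by edgeR and by DESeq2). Of the 39210 genes it tested, 3.98% were called higher. It made 3817 calls in all, against 6889 of 16869 genes in the main fit. With the filter on mean FPKM, CCNA2 was at 0.31 and 0.32 with pseudocounts of 1 and 0.1, and CCNE2 at -0.26 and -0.30. With each pseudocount 1 cyclin was called higher, where 18.3% and 18.2% of all genes tested were. CCND2 gave no value there. CCNE2 passed with DESeq2 (-0.27), RLE factors (-0.27) and a filter of 1 CPM (-0.27). With the GC and length offset, CCNE2 was at -0.46 and CCNB1 at -0.23. With siNC replicate 3 as the lone control, assumed to vary like the siSF3B6 libraries, CCNA2 was at 0.11, CCNF at -0.26 and CCNE2 at -0.47, with 1 cyclin called higher and 2471 calls over all genes. With the libraries numbered 1 and 2 only, CCND2 was at 0.59, CCNE2 at -0.20, CCNB1 at -0.13 and CCNB2 at 0.007, of which CCNB2 changed sign without being called, the CCND1 to CCND3 log2 ratio differed by 1.08, and 3 cyclins were called higher, where 28.6% of all genes tested were. Leaving out 1 library at a time gave ranges of 0.31 to 0.61 for CCND2, -0.33 to -0.15 for CCNE2, 0.28 to 0.51 for CCNA2 and -0.062 to 0.017 for CCNB2. In these fits 1 to 3 cyclins were called higher, where 14.5% to 22.5% of all genes tested were. With a replicate block, CCND2 at 0.43 (adjusted p = 0.0494) and CCNE2 at -0.26 (adjusted p = 0.0103) passed, giving 3 cyclins higher, where 24.0% of all genes tested were, and 8052 calls over all genes. Deviations of same-numbered libraries correlated at 0.040, 0.106 and 0.136, each the highest for its number, and the design does not say that the numbers pair the samples. The causes of these differences were not tested. Counting error is widest for the cyclins with few reads, CCND2 at 67 to 131 and CCNA1 at 90 to 339 per library.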

Other observations

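The other members of the cyclin family act mostly in transcription, splicing and signalling. Of 20 tested, 8 rose and 2 fell, with a median log2 fold change of 0.13, where 20.8% of all genes tested were called higher and 20.0% lower. Against siNC replicate 3 alone, 5 rose and 2 fell. CCNL1, a cyclin found with splicing factors, went from 30.3 ± 4.72 to 59.9 ± 5.93 CPM (SD, n = 3 each, log2 fold change 0.98, SE 0.112, adjusted p = 2.67e-05 by edgeR). CCNT2, a subunit of the elongation factor P-TEFb, went from 24.8 ± 3.99 to 44.7 ± 6.22 CPM (0.85, SE 0.123, adjusted p = 0.000154). CCNO fell by 0.90 and CCNG1, a p53 target, fell by 0.65 on the log2 scale. The difference between the family's branches was not tested.

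The guide strand of the siSF3B6 duplex is shown because short seed matches in 3′ UTRs are a known route to off-target effects of siRNAs, with the seed (bases 2 to 8 from the 5′ end) in capitals.
siSF3B6 guide: aAGCUUCAacuguuccucc
Its 7-base site TGAAGCT occurs once each in the annotated 3′ UTRs of CCND2 and CCNE1 and not in those of the other 8 cyclins. Among 13403 tested genes with an annotated 3′ UTR, 15.9% hold the site, and their median log2 fold change was -0.011, against 0.0062 for those without it. Of the members with a site, CCNE1 fell by 0.78 and CCND2 was at 0.42 without passing the test. The part of seed matches in these values was not tested.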
